A study of Mus musculus with 2 samples.

Results

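The genes examined were 9 of the 34285 genes measured, namely the 9 whose symbols form a list of resorption and fusion genes of the osteoclast: Acp5, Ctsk, Atp6v0d2, Ocstamp, Dcstamp, Tcirg1, Clcn7, Oscar and Nfatc1. All 9 were found once in the files. They were read by sequencing RNA of single cells from lower first molars and the tissue around them, taken from C57BL/6J mice 3 days after the last of 4 injections. One library (Lipo-Clo) came from mice that received clodronate liposomes by intraperitoneal injection at 40 μg/g on postnatal days 3.5, 6.5 and 9.5 and again 3 days later, a treatment meant to deplete macrophages, and 1 library (Lipo-PBS) from mice given vehicle liposomes on the same days. The number of mice in each library was not given in the sources used here. The comparison asked which cells carried these transcripts and whether their levels differed between the libraries.

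Osteoclasts form by fusion of myeloid precursors of the monocyte and macrophage lineage under RANKL and CSF1, and then dissolve mineral by pumping acid into a sealed space and degrade the exposed collagen with secreted proteases. During tooth eruption and root growth they clear the alveolar bone around the tooth. Clodronate liposomes are taken up by phagocytes, which then die.

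After filtering, 8254 Lipo-Clo cells with 26852423 UMIs (unique molecular identifiers, 1 per captured transcript) and 8261 Lipo-PBS cells with 25831678 UMIs were kept, with a median of 2567 and 2678 UMIs per cell. Clusters were named from marker genes that did not include the 9 genes, which were also kept out of the genes used for clustering, so each class below is a class of cells that are like the named type. With 1 library per condition there were no replicates and no test. Intervals in square brackets are exact 95% intervals that cover counting error only, and CPM (counts per 1e+06) is a gene's UMIs divided by all UMIs of the class in that library, on that scale. An unnamed cluster that carried genes of several lineages held 22 Lipo-Clo and 687 Lipo-PBS cells, and 28 and 25 of the kept cells carried 1 of the 30 cell barcodes that the libraries shared, none of them an osteoclast-like cell.

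The osteoclast-like cluster held 43 Lipo-Clo cells, 0.521% of those kept, and 8 Lipo-PBS cells, 0.0968%. Of the 12 osteoclast markers used for naming, 9 counted as found in it, and counts over the 12 were uneven. Mmp9, a gelatinase, had 623 and 82 UMIs in Lipo-Clo and Lipo-PBS, and Jdp2, a transcription factor, had 466 and 49. The calcitonin receptor gene Calcr had 2 and 1, the integrin gene Itgb3 had 1 and 0, and Siglec15, a surface receptor of fusing cells, had 1 and 1, so these late osteoclast markers were at or near 0. Of 13 macrophage markers, 9 and 10 had a UMI in these cells, at a summed level of 1170 and 2672 CPM, against 18681 and 19080 CPM in macrophage-like cells. Osteoclasts are large, and the tissue had passed a 40-μm strainer, so the cells captured need not stand for all osteoclasts of the tissue. How this step bears on the counts was not tested.

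Promoter windows of 5 of the 9 genes, taken from the RefSeq tables, were searched, with 10 start sites between them. Each window ran from 250 bases before to 50 bases after the start (build GRCm38.p6). Windows of Atp6v0d2, Ocstamp, Dcstamp and Nfatc1 were not among those selected. That does not show that these genes lack promoter sequences in the RefSeq tables, and their motifs were not tested. Both strands were searched for 5 short motifs of factors known in osteoclasts: GAGGAAG, of the kind bound by PU.1, TGGAAA, the core of NFAT sites, TCATGTG, an M-box of the MITF family, CACGTG, an E-box of the kind found in lysosomal genes, and TGANTCA, an AP-1 site. CACGTG reads the same on both strands, and no match in these windows overlapped another. The 4 windows shown are those that hold the most matches, with the matches in capitals, in either orientation. Ctsk lies at chr3:95498960-95499259 (plus strand), Acp5 at chr9:22130549-22130848 (minus strand, the most downstream of its 3 starts), Oscar at chr7:3616108-3616407 (minus strand) and Clcn7 at chr17:25133141-25133440 (plus strand).
Ctsk: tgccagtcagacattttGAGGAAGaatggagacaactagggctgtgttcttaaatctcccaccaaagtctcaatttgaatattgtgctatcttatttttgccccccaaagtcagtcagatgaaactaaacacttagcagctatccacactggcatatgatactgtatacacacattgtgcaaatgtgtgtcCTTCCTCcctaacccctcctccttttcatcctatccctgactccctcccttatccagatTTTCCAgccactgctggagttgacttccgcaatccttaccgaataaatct
Acp5: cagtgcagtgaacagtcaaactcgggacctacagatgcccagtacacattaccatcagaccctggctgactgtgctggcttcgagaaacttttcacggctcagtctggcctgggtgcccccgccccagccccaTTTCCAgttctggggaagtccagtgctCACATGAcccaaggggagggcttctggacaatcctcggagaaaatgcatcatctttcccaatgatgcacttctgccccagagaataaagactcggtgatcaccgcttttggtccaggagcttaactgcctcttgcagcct
Oscar: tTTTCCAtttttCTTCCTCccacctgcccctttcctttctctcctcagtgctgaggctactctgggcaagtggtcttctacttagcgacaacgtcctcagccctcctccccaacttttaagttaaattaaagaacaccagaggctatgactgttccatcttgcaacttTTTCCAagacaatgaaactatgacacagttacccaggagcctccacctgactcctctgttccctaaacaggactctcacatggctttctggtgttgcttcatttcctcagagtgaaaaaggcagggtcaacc
Clcn7: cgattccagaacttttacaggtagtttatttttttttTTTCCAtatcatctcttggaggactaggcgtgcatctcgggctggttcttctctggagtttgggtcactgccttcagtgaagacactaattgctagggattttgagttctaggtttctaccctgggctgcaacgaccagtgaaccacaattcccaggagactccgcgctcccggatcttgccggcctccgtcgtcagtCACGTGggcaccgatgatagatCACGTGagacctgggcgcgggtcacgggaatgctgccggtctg
Over the 10 windows, GAGGAAG was in 3, at 233 and 59 bases before the Ctsk start, 238 before that of Oscar and 16 bases into the transcript of a Tcirg1 start, and 13.6% of 32851 promoters of the same length held it. TGGAAA or its reverse complement was in 4 of the 10, all shown here, and in 21.4% of all promoters. TCATGTG was in 2, at 90 bases before the Acp5 start, as CACATGA, and 42 before a second Clcn7 start, and 3.77% of promoters held it. CACGTG was in 1, that of Clcn7, in 2 copies on either side of the start, with 7.15% of promoters holding it. TGANTCA was in none of the 10 windows and in 7.81% of all promoters. The starts of 1 gene share sequence or lie close together and the windows shown were picked for their matches, so nothing is read from these shares. These are letter matches and say nothing of binding.

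Acp5, which encodes tartrate-resistant acid phosphatase, the classical histochemical marker of osteoclasts, had 773 UMIs in the 43 osteoclast-like cells of Lipo-Clo (2659 CPM [2475, 2854]) and 175 in the 8 of Lipo-PBS (4066 CPM [3486, 4716]). In macrophage-like cells it had 28 UMIs (128 CPM) and 18 UMIs (57.5 CPM). The ratio of osteoclast-like to macrophage-like cells was 20.8-fold [14.3, 31.6] in Lipo-Clo and 70.7-fold [43.4, 122] in Lipo-PBS. Reads of an antisense gene over Acp5, 6530413G14Rik, came to 3 UMIs in each library.

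Ctsk encodes cathepsin K, the protease that cleaves collagen under the ruffled border. It had 951 UMIs in osteoclast-like cells of Lipo-Clo (3272 CPM [3067, 3486]) and 181 in those of Lipo-PBS (4206 CPM [3615, 4865]). Macrophage-like cells held 0 of 219478 UMIs in Lipo-Clo, which allows up to 13.7 CPM, and 22 UMIs (70.3 CPM) in Lipo-PBS, of which 18 were in 1 cell. Neutrophils, which should lack Ctsk, had 36.5 and 78.1 CPM. The osteoclast-like level was at least 239-fold higher than the level of 3 UMIs in the Lipo-Clo macrophage-like cells, and 59.8-fold [38.3, 97.8] above the Lipo-PBS ones. Mesenchymal cells carried Ctsk too, so osteoclast-like cells exceeded them by only 11.7-fold [10.88, 12.55] and 11.8-fold [10.2, 13.7], while for Acp5 the same ratio was 139-fold [121, 160] and 220.1-fold [180.3, 268].

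Genes of acid secretion followed. Atp6v0d2, a subunit of the proton pump that myeloid cells use and that also takes part in fusion, had 111 and 17 UMIs in the osteoclast-like cells of Lipo-Clo and Lipo-PBS (382 and 395 CPM), against 1 and 21 UMIs (4.56 and 67.1 CPM) in macrophage-like cells. Tcirg1, the pump subunit of the ruffled border, had 54 UMIs (186 CPM) and 15 (349 CPM), and was 2.72-fold [1.51, 5.19] and 6.81-fold [3.14, 14.7] above macrophage-like cells. Clcn7, the chloride and proton exchanger that works beside the pump, had only 9 and 3 UMIs (31.0 and 69.7 CPM), and its ratio to macrophage-like cells was 0.971 [0.322, 3.07] and 2.18 [0.386, 8.47], so that no difference could be seen at this depth. Its level in mesenchyme was 11.6 and 11.7 CPM.

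Dcstamp and Ocstamp, membrane proteins needed for precursors to fuse, were detected at low counts. Dcstamp had 32 and 4 UMIs in osteoclast-like cells (110 and 92.9 CPM) and 0 in macrophage-like cells of both libraries. Ocstamp had 26 and 2 UMIs (89.4 and 46.5 CPM) against 1 and 0 in macrophage-like cells. Oscar, a receptor for collagen that gives a costimulatory signal, had 9 UMIs in Lipo-Clo, in 3 cells, and 0 of 43035 UMIs in Lipo-PBS, which allows up to 69.7 CPM, above the 31.0 CPM of Lipo-Clo. Nfatc1, the transcription factor that drives the late osteoclast programme, had 105 and 18 UMIs (361 and 418 CPM), 9.91-fold [4.85, 23.6] and 14.5-fold [6.20, 36.7] above macrophage-like cells.

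Genes were compared where they had at least 20 UMIs over the pair of classes. In Lipo-Clo the 7 listed genes that passed were all at least 1.5-fold higher in osteoclast-like than in macrophage-like cells, where of 3361 genes 32.8% were higher and 30.5% lower, 63.3% either way. Only Acp5 had 20 UMIs in the macrophage-like cells, so the other 6 passed through the osteoclast-like cells in which they were high, and nothing is read from this count. In Lipo-PBS 5 passed and were higher, where of 2930 genes 27% were higher and 41% lower, 68% either way, and Ctsk and Atp6v0d2 alone had 20 UMIs in macrophage-like cells. Over mesenchyme 8 passed and were higher in Lipo-Clo, where 20.1% of genes were higher and 54.6% lower (74.8% either way), of which Atp6v0d2, Ocstamp and Dcstamp had fewer than 20 UMIs in mesenchyme. In Lipo-PBS 6 passed, each with 20 UMIs or more in mesenchyme, and were higher, where 23.4% of genes were higher and 62.4% lower (85.8% either way). Clcn7 and Oscar did not pass against macrophage-like cells in either library. Acp5 and Atp6v0d2 were also among the 10 leading genes of the osteoclast-like cluster, which were ranked after clustering.

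**Figure D1:**
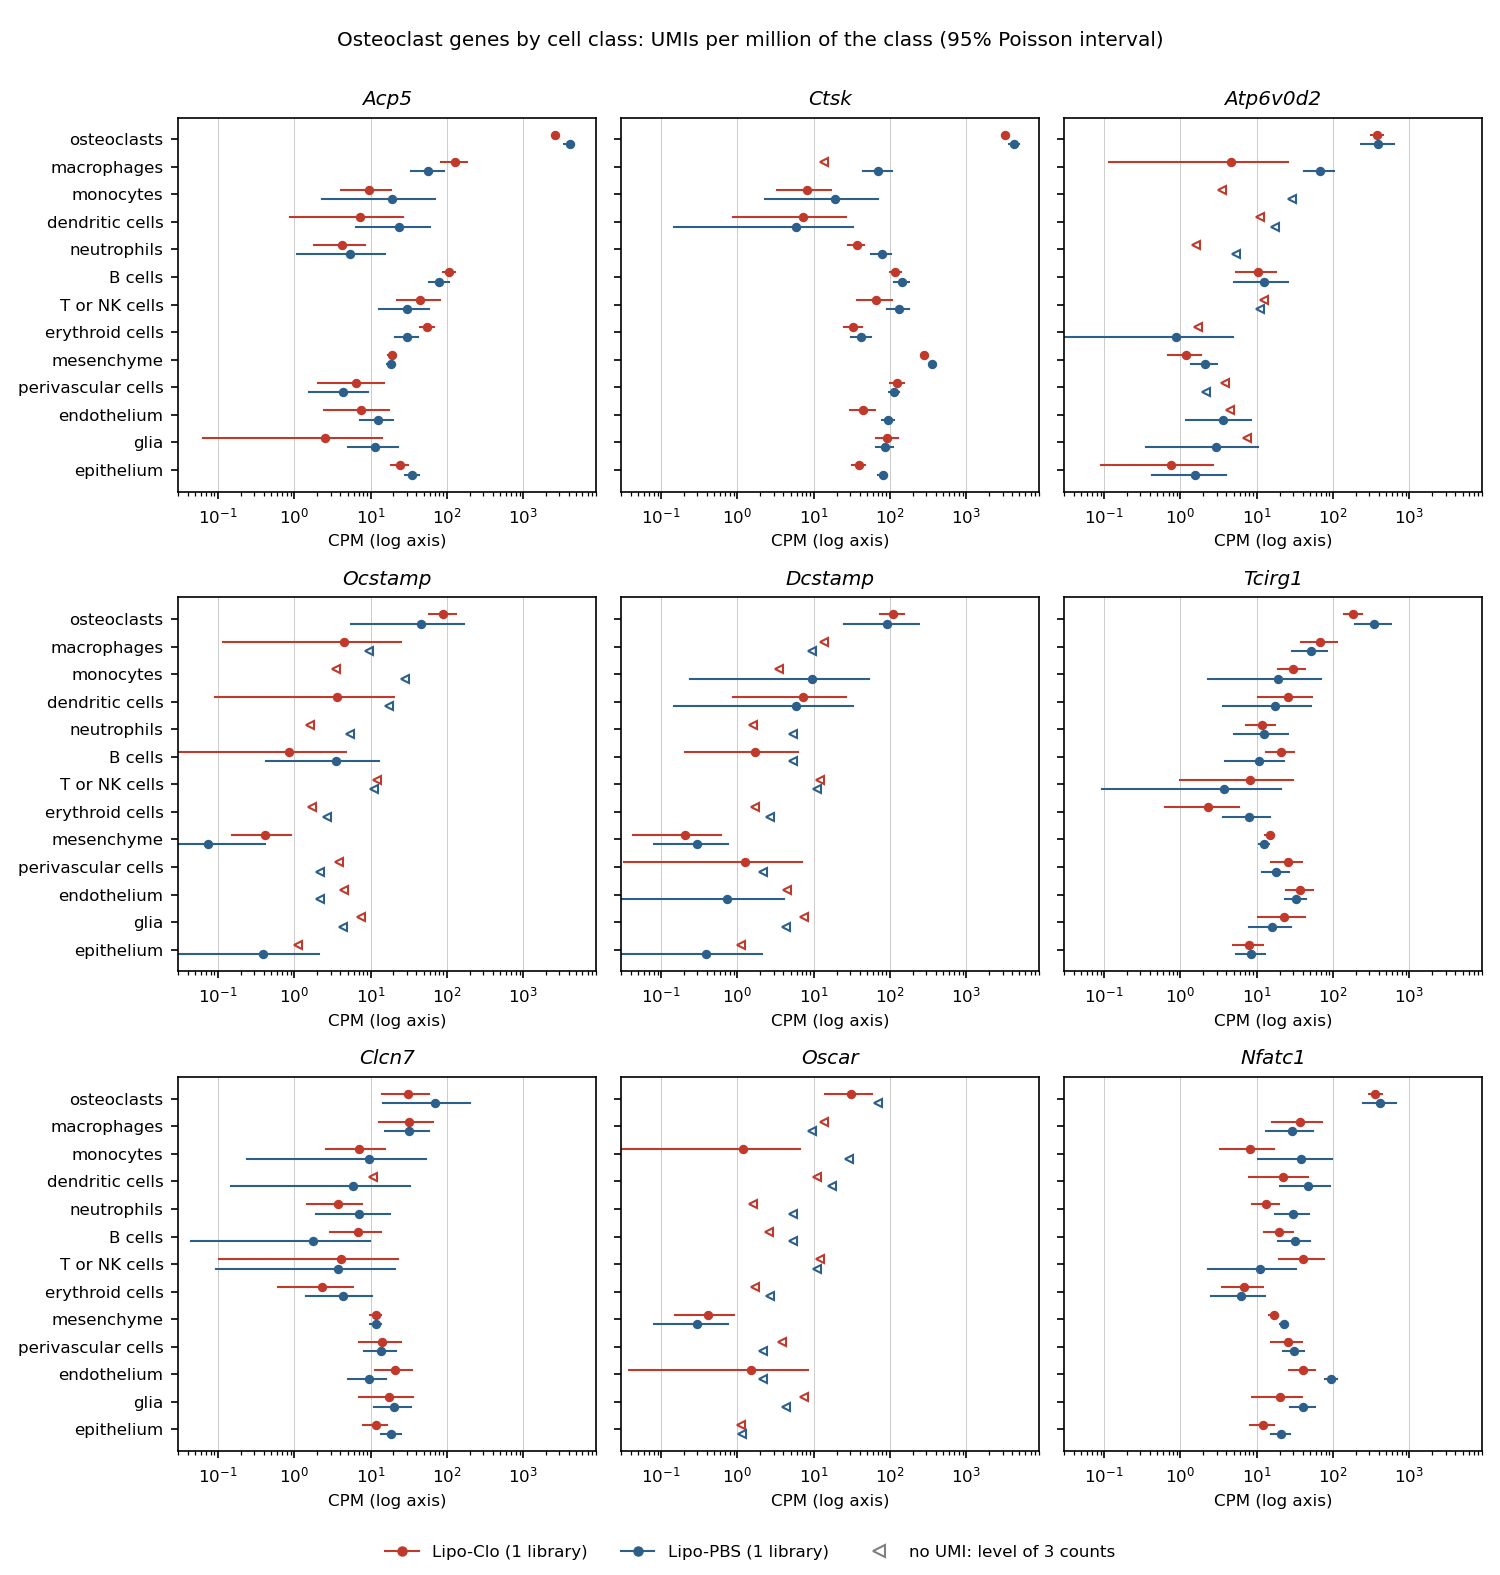
Level of each of the 9 genes in 13 named cell classes (rows) of Lipo-Clo (red) and Lipo-PBS (blue), in CPM on a log axis, with bars for the 95% Poisson interval and open arrowheads at the level of 3 counts where no UMI was seen. Acp5 and Ctsk reached 2659 to 4206 CPM in osteoclast-like cells, and of the other classes mesenchyme held the highest Ctsk level in both libraries.

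Levels within the osteoclast-like cluster were very uneven. In the 43 Lipo-Clo cells, Acp5 ran from 0 over a median of 12 to 103 UMIs per cell and Ctsk from 0 over 7 to 241. In the 8 Lipo-PBS cells Acp5 ran from 0 over 6.5 to 71 and Ctsk from 0 over 1.5 to 84. The ranges overlapped throughout. A UMI of Acp5 was seen in 37 of 43 and 6 of 8 cells, of Ctsk in 28 and 5, of Nfatc1 in 34 and 4, and of Atp6v0d2 in 31 and 4. Both Acp5 and Ctsk were seen in 27 and 4 cells, and Acp5 without Ctsk in 10 and 2. At least 5 UMIs summed over the listed genes were found in 36 of 43 Lipo-Clo cells but only 4 of 8 Lipo-PBS cells. The other Lipo-PBS cells held 1 or 2 such UMIs each. In Lipo-PBS 3 cells held 92% of the Acp5 and 98.3% of the Ctsk UMIs, against 29.5% and 43.4% in Lipo-Clo. Lipo-PBS levels of Acp5 and Ctsk in this class, and ratios that use them, thus rest mainly on 4 cells.

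Fusion genes were too sparse to say which cells lacked them. Dcstamp or Ocstamp had a UMI in 19 of 43 Lipo-Clo cells and 3 of 8 Lipo-PBS cells. All 14 Lipo-Clo cells with Dcstamp also had Atp6v0d2, as did all 3 such cells of Lipo-PBS. A UMI of all 9 genes was found in 2 Lipo-Clo cells, and the most in a Lipo-PBS cell was 8. The median cell had 4 of the 9 in Lipo-Clo and 3.5 in Lipo-PBS, at a median depth of 6100 and 5028 UMIs.

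**Figure D2:**
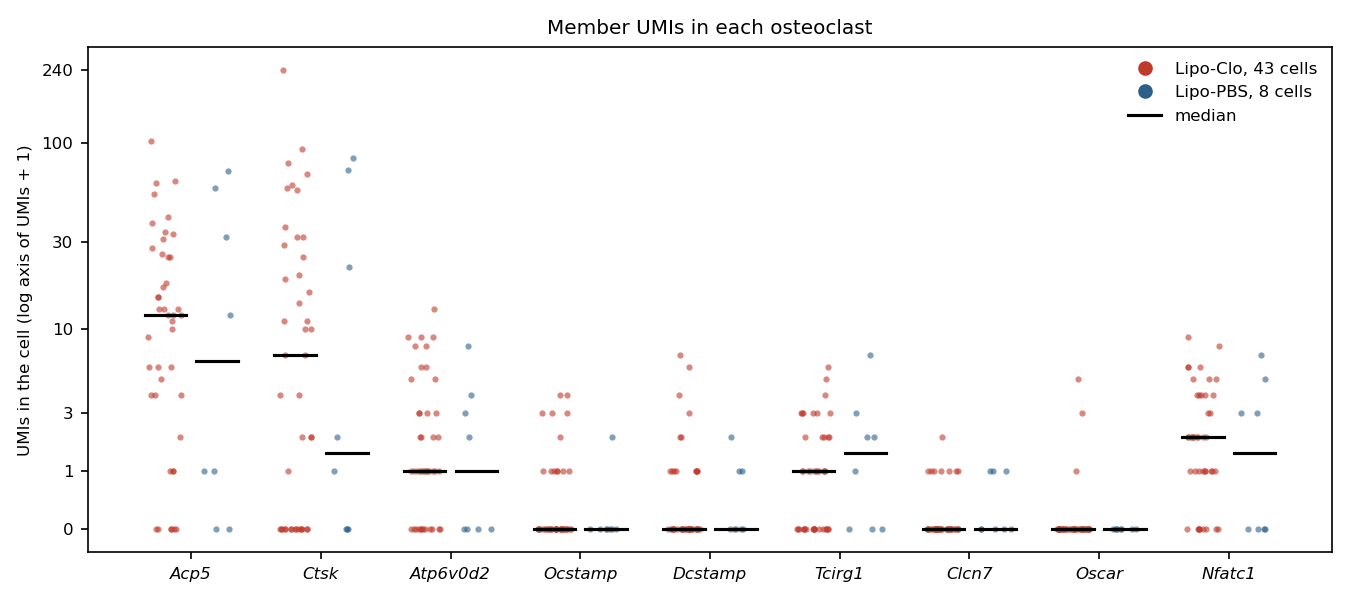
UMIs of each gene in each of the 43 Lipo-Clo (red) and 8 Lipo-PBS (blue) osteoclast-like cells, on a log axis of UMIs plus 1, with black lines for medians. Counts of Acp5 and Ctsk ran from 0 to 103 and from 0 to 241 in Lipo-Clo, and the other 7 genes stayed at 13 UMIs or fewer per cell.

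Most Ctsk transcripts lay outside osteoclasts. Mesenchymal cells, which include the dental follicle, periodontal ligament, fibroblasts, osteoblasts and odontoblasts, held 4040 of 5919 Ctsk UMIs in Lipo-Clo (68.3% [67.1, 69.4]) and 4786 of 6722 in Lipo-PBS (71.2% [70.1, 72.3]), and the osteoclast-like cells held 16.1% and 2.69%. Of the UMIs of all genes, mesenchyme held 14434954 of 26852423 in Lipo-Clo and 13475090 of 25831678 in Lipo-PBS. A gene at the same level in all cells would thus also have most of its UMIs there. The level in mesenchyme was 280 CPM [271, 289] and 355 CPM [345, 365]. A Ctsk UMI was seen in 48.2% and 55.1% of mesenchymal cells at a median depth of 2840 and 2968 UMIs, against 9.14% and 10.9% of neutrophils, which should lack it, at 2685 and 1968. With every cell thinned to 1000 UMIs the shares were 22.6% and 26.3% in mesenchyme and 2.94% and 7.07% in neutrophils. In mesenchymal cells with no UMI of 9 osteoclast markers, Ctsk was at 259 and 328 CPM. Itgb3, 1 of these markers, had 182 and 275 UMIs in mesenchyme against 1 and 0 in osteoclast-like cells. The step was thus not specific to cells that carried osteoclast RNA, and it does not remove Ctsk RNA carried without a marker.

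Acp5 behaved otherwise in mesenchyme. It had 277 UMIs (19.2 CPM [17.0, 21.6]) and 249 UMIs (18.5 CPM [16.3, 20.9]), which made up 17.4% and 26.8% of its UMIs. Both shares were below the share of all genes' UMIs that mesenchyme held. A UMI was seen in 3.68% and 3.41% of cells, and after thinning in 1.29% and 0.980%, against 1.52% and 1.31% of neutrophils before thinning and 0.840% and 1.09% after. The level in neutrophils was 4.24 and 5.33 CPM. Single cells held 66 of the 277 and 60 of the 249 UMIs. In mesenchymal cells without osteoclast markers the level was 12.0 and 10.8 CPM. Ctsk UMIs per Acp5 UMI came to 14.6 [12.9, 16.5] and 19.2 [16.9, 21.9] in mesenchyme, and to 1.23 [1.12, 1.35] and 1.03 [0.836, 1.28] in osteoclast-like cells.

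Across 11 mesenchymal subclusters, Ctsk was highest in the dental follicle subcluster, with 475 and 640 CPM and a UMI in 72.2% and 75.1% of cells. The 2 periodontal ligament subclusters had 398 and 486 CPM and 292 and 429 CPM, and a fibroblast subcluster led by Ccl19 had 341 and 274 CPM. Osteoblasts or cementoblasts had 252 and 321 CPM. Odontoblasts, the dentin-forming cells, were lowest in Lipo-Clo at 142 CPM and had 171 CPM in Lipo-PBS, where the lowest was an unnamed subcluster led by Ctnnd2 and Trf at 107 CPM. The order of the subclusters differed between the libraries, and neighbours often had overlapping intervals.

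Ctsk was lower in Lipo-Clo in 9 of the 11 subclusters, with an interval clear of 0 in 6, and higher clear of 0 in 1. The log2 ratio ran from -0.55 to 1.11 with a median of -0.29. The exception, the Ctnnd2 subcluster, had 231 against 107 CPM, and 60 of its 148 Lipo-Clo UMIs were in 1 cell. With the richest cell of each library left out in every subcluster, its ratio was 0.50 [-0.06, 1.07], and Ctsk was lower in 8 of 11, clear of 0 in 7. An unnamed subcluster led by Egfem1 and Lrrc4c then turned from -0.19 [-0.48, 0.10] to 0.36 [0.03, 0.69], since 58 of its 174 Lipo-PBS UMIs were in 1 cell. For Acp5, 35 of 43 UMIs of the Lipo-PBS dental follicle, 60 of 76 of the Lipo-PBS Egfem1 subcluster and 66 of 83 of the Lipo-Clo Ctnnd2 subcluster were in 1 cell each. In an unnamed subcluster led by Pcp4 and H19 it was spread over more cells, with 77 UMIs in 44 of 401 Lipo-Clo cells (10.97%, 49.3 CPM) and 43 UMIs in 33 of 311 Lipo-PBS cells (10.6%, 35.2 CPM), although 27 of the 77 were in 1 cell.

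**Figure D3:**
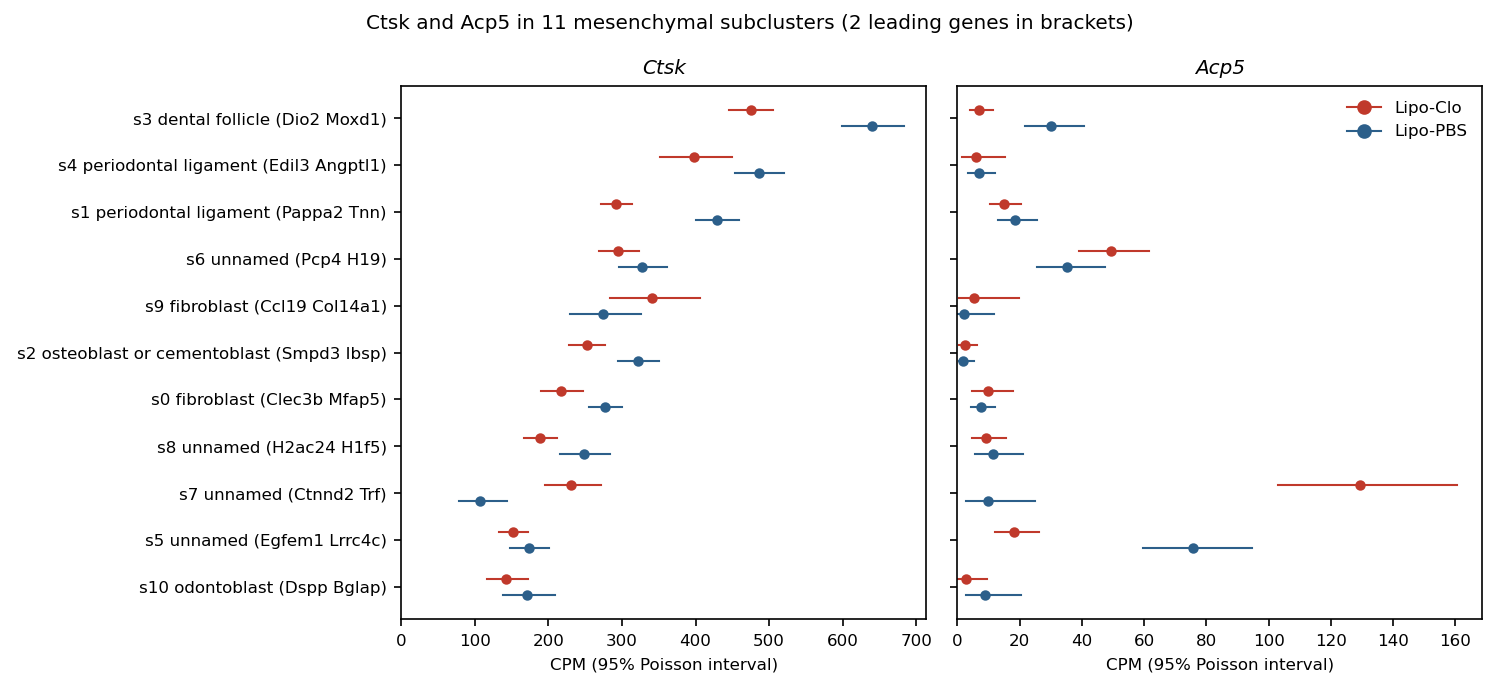
Levels of Ctsk (left) and Acp5 (right) in CPM in 11 mesenchymal subclusters (rows, with 2 leading genes each) of Lipo-Clo (red) and Lipo-PBS (blue), with bars for the 95% Poisson interval. Ctsk was highest in the dental follicle, at 475 and 640 CPM, and lowest at 142 CPM in odontoblasts of Lipo-Clo and 107 CPM in s7 of Lipo-PBS, and the Acp5 values of 129.5 CPM in s7 of Lipo-Clo and 75.6 CPM in s5 of Lipo-PBS rested on 1 cell each for most UMIs.

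Other classes carried some of the genes. B cells had Acp5 at 108 and 79.7 CPM, with 31 of 125 and 20 of 45 UMIs in 1 cell. Erythroid cells had 55.2 and 30.0 CPM of Acp5, and at most 7 UMIs in a cell, with 0 and 1 UMI of Atp6v0d2. Endothelial cells, which are known to use NFATc1 in developing heart valves, had Nfatc1 at 40.4 and 95.1 CPM. An unnamed myeloid subcluster of 60 and 79 cells, with markers of macrophages, monocytes, dendritic cells and osteoclasts, held 180 and 97 Acp5 UMIs (490 and 277 CPM) and 348 and 172 Ctsk UMIs (948 and 492 CPM), and 3 of its cells held 92.8% of the Lipo-Clo Acp5. In Lipo-Clo 1 cell held 222 of the 348 Ctsk UMIs. The subcluster also carried the mesenchymal gene Col1a1 at 16790 and 18490 CPM, against 624 and 710 CPM in macrophage-like cells. The mixed cluster that was almost all Lipo-PBS held 170 Acp5 and 786 Ctsk UMIs there.

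**Figure D4:**
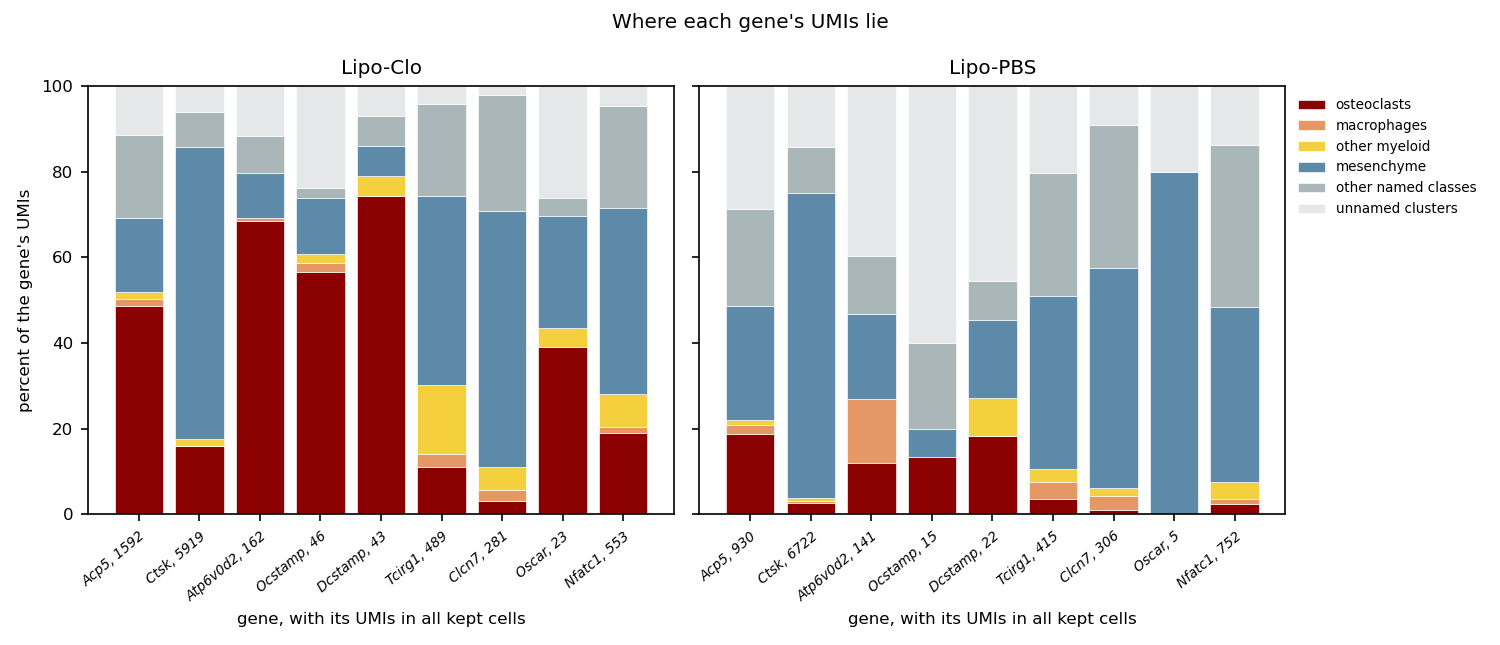
Percent of each gene's UMIs (vertical axis, from 0 to 100) that lay in each group of cells, for Lipo-Clo (left) and Lipo-PBS (right), with the gene's UMIs in all kept cells beside its name. Mesenchyme held 68.3% and 71.2% of Ctsk, and osteoclast-like cells held 48.6% and 18.8% of Acp5. Of the UMIs of all genes, mesenchyme held 14434954 of 26852423 and 13475090 of 25831678.

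Between the libraries, the clearest differences were in all kept cells. For Acp5, the 1592 UMIs of Lipo-Clo (59.3 CPM) stood against 930 in Lipo-PBS (36.0 CPM), which gave a log2 ratio of 0.72 [0.60, 0.84]. Ocstamp had 46 against 15 UMIs (1.56 [0.69, 2.51]), Oscar 23 against 5 (2.15 [0.72, 3.90]) and Dcstamp 43 against 22 (0.91 [0.14, 1.72]). These 4 of the 9 were past 1.5-fold, all higher in Lipo-Clo, where 6.59% of 17721 genes were past it in that direction and 14.5% in the other, 21.1% in all. The median ratio of all genes tested was -0.11, and the signs of these 4 ratios held in 12 of 12 alternatives. Alternatives that changed only the clustering could not alter sums over all kept cells, and those that rescaled the totals moved every gene alike. Agreement there was in part fixed in advance. Ocstamp and Oscar reached 20 UMIs in Lipo-Clo alone. There, 9 of the 23 Oscar UMIs lay in 3 osteoclast-like cells and 6 in 2 cells of the unnamed myeloid subcluster. In 3 cells of that subcluster lay 10 of the 46 Ocstamp UMIs. The intervals do not cover such clumping. Ctsk was lower, at 220 against 260 CPM (-0.24 [-0.29, -0.19]), and so was Nfatc1, with 553 against 752 UMIs (-0.50 [-0.66, -0.34]). The intervals of Atp6v0d2 (0.14), Tcirg1 (0.18) and Clcn7 (-0.18) included 0. In bulk sums of this kind more cells of a type and more RNA per cell cannot be told apart.

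The picture changed when the osteoclast-like cells were left out. Without them, Acp5 was 30.8 against 29.3 CPM (0.07 [-0.07, 0.22]), Ocstamp 0.58 [-0.50, 1.71], Dcstamp -0.75 [-1.98, 0.41] and Oscar 1.44 [-0.11, 3.27], while Ctsk was -0.44 [-0.49, -0.39], Nfatc1 -0.75 [-0.93, -0.58] and Atp6v0d2 -1.32 [-1.82, -0.84]. These ratios compare what was left after unequal removals. Of 40 Lipo-Clo cells with at least 10 UMIs of the 8 genes other than Ctsk, 10 lay outside the osteoclast-like class. Of 19 such Lipo-PBS cells, 15 did. Unnamed clusters held 11.7% of Lipo-Clo and 39.7% of Lipo-PBS Atp6v0d2 UMIs. Osteoclast-like cells held 68.5% and 12.1%. How this bears on the ratios was not tested. The log2 ratio of the osteoclast-like share of kept cells was 2.43 [1.32, 3.73]. That share depended on how the cells were called. With all cells holding at least 3 UMIs of 8 osteoclast markers it was -0.24 [-0.76, 0.27]. With the unnamed myeloid subcluster counted in it was 0.24 [-0.18, 0.67]. The 3-UMI gate was open to cells of any class. Of its markers, Itgb3 had 182 Lipo-Clo and 275 Lipo-PBS UMIs in mesenchyme, against 1 and 0 in osteoclast-like cells. Cd109 had 362 and 365 in mesenchyme against 21 and 3.

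Within osteoclast-like cells the direction was not settled. Acp5 was lower in Lipo-Clo by a log2 ratio of -0.61 [-0.85, -0.37] and Ctsk by -0.36 [-0.59, -0.12], and the other 6 genes with UMIs in both libraries had intervals that included 0. In Lipo-PBS 1 of the 8 cells held 40.6% of the Acp5 UMIs and 1 held 46.4% of the Ctsk UMIs. With the cell richest in the gene left out of each library, the ratios were -0.20 [-0.50, 0.12] and -0.01 [-0.32, 0.31]. Ctsk turned to 0.20 with doublets kept and to 0.15 with edgeR's TMM factors, and with the 3-UMI gate Acp5 and Ctsk were 1.29 and 1.43. Of the 7 genes with at least 20 UMIs, 3 were past 1.5-fold, Ocstamp higher and Acp5 and Tcirg1 lower, where 44.1% of all genes were, 23.7% higher and 20.3% lower. Only Acp5 and Ctsk had 20 UMIs in both libraries.

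In macrophage-like cells, which numbered 105 and 137, Acp5 was higher in Lipo-Clo (1.15 [0.24, 2.09]), with a UMI in 18.1% and 8.03% of cells, or 13.3% and 3.33% after thinning, against 0.840% and 1.09% of neutrophils. Atp6v0d2 was lower, with 1 UMI against 21 (-3.88 [-9.25, -1.24]), and 3 Lipo-PBS cells held 71.4% of the 21. Ctsk was lower too, with 0 against 22, a ratio of at most 0.194 at 3 UMIs. Without the 1 Lipo-PBS cell with 18 UMIs, Ctsk would be at 4 UMIs. These 3 of the 4 listed genes with 20 UMIs were past 1.5-fold, as were 35.7% of all genes, 13% higher and 22.8% lower, but Ctsk and Atp6v0d2 reached 20 UMIs through Lipo-PBS, where they were high, so nothing is read from the count. Tcirg1 (0.42), Clcn7 (0.00) and Nfatc1 (0.34) had intervals that included 0, and Dcstamp and Oscar had no UMI.

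In mesenchyme Ctsk was lower in Lipo-Clo by a log2 ratio of -0.34 [-0.40, -0.28] and Nfatc1 by -0.46 [-0.71, -0.21]. Both signs held in 13 of 13 alternatives, which used the same libraries and mostly the same cells, so their agreement is not independent. Ctsk was also lower in Lipo-Clo in neutrophils, which should lack it. It was lower in epithelium too, at 36.6 against 77.4 CPM without the richest cell of each library. The unnamed myeloid subcluster was level by that count, at 354 against 353 CPM. The part of the differences in neutrophils and epithelium in the mesenchymal ratio was not tested. Within subclusters Nfatc1 was lower in 4 of the 6 with at least 50 UMIs, clear of 0 in 1, with a median of -0.27. The libraries differ in their subclusters, and the fibroblast and periodontal ligament subclusters with the highest Nfatc1 in Lipo-PBS (29.7 and 28.5 CPM) held 424 and 228 Lipo-Clo cells against 790 and 582 Lipo-PBS cells. Acp5 (0.05), Tcirg1 (0.26) and Clcn7 (0.00) had intervals that included 0. Of the 6 genes tested, only Atp6v0d2, with 17 against 28 UMIs (-0.82 [-1.78, 0.10]), was past 1.5-fold, where 15.3% of all genes were, 5.64% higher and 9.64% lower. In endothelium Nfatc1 was also lower (-1.24 [-1.89, -0.63]), as was Ctsk (-1.07 [-1.70, -0.49]), at 44.8 and 94.4 CPM, near the levels of neutrophils. That class joined a cluster led by Emcn and Cdh5, of 390 and 423 cells, with a cluster led by Ccl21a and Prox1, genes of lymphatic vessels, of 31 and 147 cells, and the part of this difference in the ratios was not tested.

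**Figure D5:**
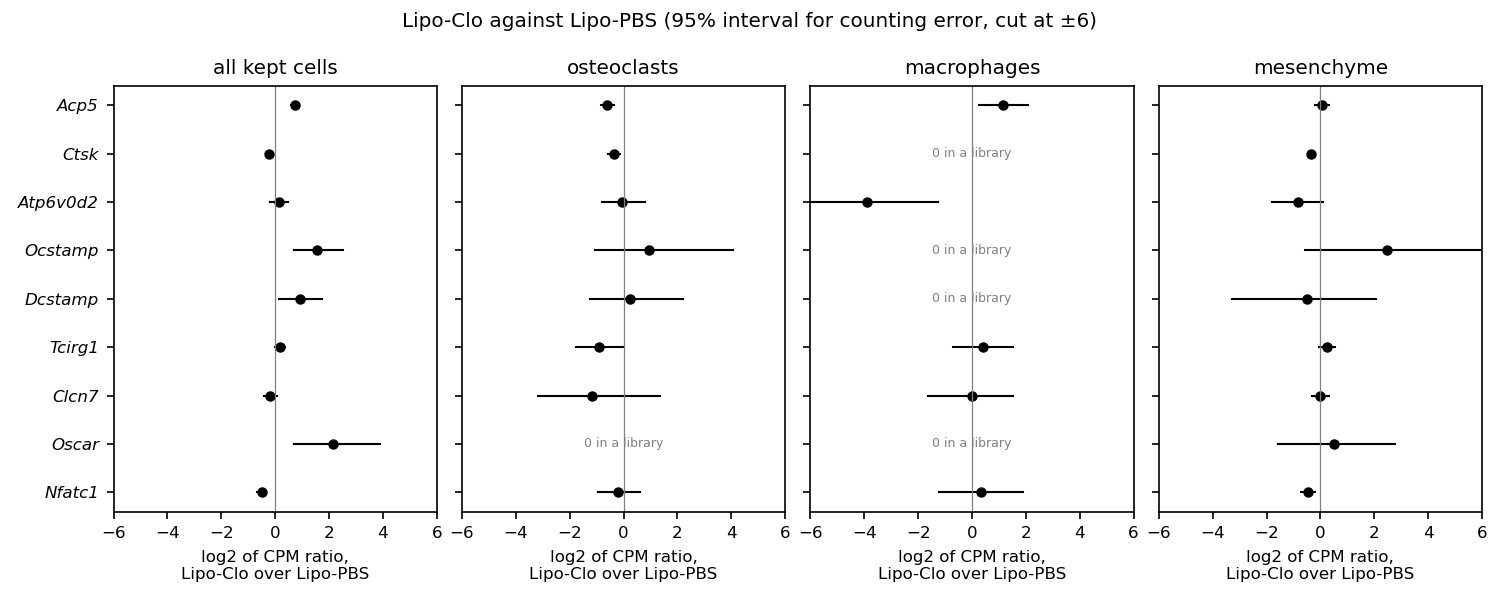
Log2 of the CPM ratio of Lipo-Clo over Lipo-PBS for each gene in all kept cells, osteoclast-like cells, macrophage-like cells and mesenchyme, with bars for the 95% interval of counting error and a line at 0. In all kept cells Acp5, Ocstamp, Dcstamp and Oscar lay above 0 and Ctsk and Nfatc1 below, and in osteoclast-like cells Acp5 and Ctsk lay below 0 at -0.61 and -0.36.

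Other genes of the pathway were read from fixed lists, at the same 1.5-fold limit. Over all genes 32.8% were higher and 30.5% lower in osteoclast-like than in macrophage-like cells in Lipo-Clo, and 27% and 41% in Lipo-PBS. Of 8 resorption genes, the 6 with 20 UMIs in Lipo-Clo and the 3 in Lipo-PBS were higher, but in Lipo-Clo each had fewer than 20 UMIs in macrophage-like cells, so nothing is read from the count. Mmp9, Car2 and Slc9b2 of this list were among the markers that named the cluster, so their part in this count is no finding. Snx10, a sorting protein of the ruffled border, had 62 and 15 UMIs in osteoclast-like cells and 15 and 23 in macrophage-like cells. Raw counts of these classes do not compare directly. The osteoclast-like cells held 290675 and 43035 UMIs of all genes, and the macrophage-like cells 219478 and 312834. Relative to these totals Snx10 was higher in osteoclast-like cells of both libraries. Of 15 proton pump subunits, all tested, 10 were higher and 1 lower in Lipo-Clo (32.8% and 30.5% of all genes), and 8 higher and 4 lower in Lipo-PBS (27% and 41%). Atp6v0c, which forms the rotor ring, reached 5157 and 3741 CPM in osteoclast-like cells, against 1681 and 1662 CPM in macrophage-like cells. Atp6v0a1 was one of the lower ones, with 2 and 1 UMIs in osteoclast-like against 29 and 48 in macrophage-like cells.

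Among genes that restrain osteoclast formation, Irf8 had 4 and 0 UMIs in osteoclast-like cells against 38 and 46 in macrophage-like cells (173 and 147 CPM). Bcl6 had 2 and 0 UMIs against 18 and 32. The 0 counts of Lipo-PBS came from only 43035 UMIs of all genes, against 312834 in macrophage-like cells, so the raw counts overstate the gap there. Of 7 transcription factors, 3 of 5 tested were higher and 1 lower in Lipo-Clo (32.8% and 30.5% of all genes), and 2 of 5 higher and 1 lower in Lipo-PBS (27% and 41%). Jdp2, itself a marker of the cluster, had 1603 and 1139 CPM against 214 and 249 CPM. Of receptors and adaptors 3 were higher and 3 lower of 9 in Lipo-Clo, near the shares of all genes (32.8% and 30.5%), and 2 higher and 4 lower of 7 in Lipo-PBS (27% and 41%). The RANK gene Tnfrsf11a had 110 and 139 CPM in osteoclast-like and 45.6 and 51.1 CPM in macrophage-like cells, while Csf1r, the CSF1 receptor, had 265 and 395 CPM against 743 and 857 CPM. Tnfrsf11a was among the osteoclast markers and Csf1r among the macrophage markers used for naming, so their direction is no finding. Of 8 fusion and surface genes, 2 of 5 tested were higher and 2 lower in Lipo-Clo (32.8% and 30.5% of all genes), and 2 of 4 were higher in Lipo-PBS (27%). Siglec15, Cd109 and Rufy4 of this list were among the markers that named the cluster, so their part in this count is no finding. Cd9, a tetraspanin of the cell surface, had 537 and 976 CPM in osteoclast-like cells and 155 and 377 CPM in macrophage-like cells. Cd47 and Sirpa, a ligand and its receptor, were the lower ones in Lipo-Clo, with log2 ratios of -0.79 and -0.76. Of the RANKL gene Tnfsf11, mesenchyme held 81 of 95 UMIs in Lipo-Clo and 110 of 167 in Lipo-PBS, and its log2 ratio between the libraries there was -0.54 [-0.97, -0.11]. Csf1 had 298 of 447 and 296 of 458 UMIs in mesenchyme (-0.09 [-0.33, 0.15]) and the decoy receptor Tnfrsf11b 260 of 361 and 282 of 369 (-0.22 [-0.47, 0.03]). Il34, the other ligand of the CSF1 receptor, had 60 of 263 and 105 of 499 (-0.91 [-1.39, -0.44]), so that most of it lay elsewhere. For comparison, mesenchyme held 14434954 of 26852423 and 13475090 of 25831678 UMIs of all genes.

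Over 28 points, the named classes of both libraries with at least 20000 UMIs, genes whose log2 level was among the most like the summed level of the 9 were Sdha (Pearson r 0.85), Coq8a (0.78), Jdp2 (0.77), Bdh2 (0.76), Ppargc1b (0.74), Slc9b2 (0.74) and Arf1 (0.74). Jdp2 and Slc9b2 were among the osteoclast markers used for naming, so their likeness is no finding. In osteoclast-like cells and mesenchyme Acp5 and Ctsk held most of the summed UMIs. Sdha encodes an enzyme of the citric acid cycle and Ppargc1b a coactivator of mitochondrial genes. Within the list, the level of Atp6v0d2 followed that of the other 8 most closely (0.87) and that of Oscar least (0.54), next to Ctsk (0.56). Oscar had few or no UMIs in each class, so its value is limited by low counts. Over the 22 points of the 11 mesenchymal subclusters, the genes most like Ctsk were Cyp26b1 (0.89), Igsf10, Ptgfr, Scpep1, Spon1, Dkk3, Cald1 and Itgb5 (0.84). Points of 1 library share their depth and free RNA, so these values are descriptions.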

How the data were processed

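UMI counts per gene and cell, not normalized, were deposited by the authors for 2 libraries as filtered matrices. The file headers name Cell Ranger 8.0.0, while the submitters' processing notes name Cell Ranger 3.1.0, Seurat 3.1.1 and the build GRCm39 (mm39), so the version is unsettled. Each library was listed as replicate 1 of its group.

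Cells needed 200 genes or more and no more than 20% of UMIs from mitochondrial genes, and the 632 and 633 cells with the highest Scrublet scores were left out as doublets (0.8% per 1000 cells), since the automatic threshold marked too few. Cells were clustered with scanpy 1.11.5 and leidenalg 0.10.2 at resolution 1, and myeloid cells again at 0.5. A class needed at least 3 of its markers. Counts were summed per class and library. Ratios carry exact conditional intervals, levels Poisson and shares Clopper-Pearson intervals, at 95%, and a count of 0 allows 3 counts. Genes with at least 20 UMIs were called by 1.5-fold size alone. The interval calculations were run on simulated Poisson counts. These have no clumping of UMIs in single cells, so the run checks the arithmetic only.

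The 9 genes and all lists were chosen with earlier results of these data known. Other named genes are the fixed lists and the 8 most alike by Pearson's r of log2(CPM + 1). Some genes that this rule names are not reported here. Alternatives were other filters, doublets, resolutions, gates, floors, limits and the factors of edgeR 4.0.16 and DESeq2 1.42.0. The mesenchymal calls without osteoclast markers used 9 markers. Promoters are RefSeq's for GRCm38.p6, whose coordinates are not those of the files' build.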

Additional observations from a re-analysis of the deposited data

How the results depend on the processing

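No paired analysis was possible because there was only a single library on each side. With 43 and 8 osteoclast-like cells, counting error is wide for all but Acp5 and Ctsk, and spread between mice could not be measured. Of 31 log2 ratios of single genes, 12 had an interval clear of 0. The share of all genes with such an interval was not counted, so nothing is read from this number. Of the 12, 10 kept their sign in every alternative. The exceptions were Acp5 and Ctsk in osteoclast-like cells, which turned to 1.29 and 1.43 with a gate of 3 UMIs over 8 markers and to 1.07 and 1.14 with the unnamed myeloid subcluster counted in, while Ctsk turned to 0.20 with doublets kept and to 0.15 with TMM factors. The cause was not tested. For ratios over all kept cells, alternatives that changed only the clustering could not alter the sums, so that agreement was partly fixed in advance. Leaving out the richest cells, counting in the unnamed clusters and taking the stricter filter's subcluster as osteoclast-like were chosen after seeing the data. The gate was open to cells of any class and the myeloid subcluster carried much mesenchymal RNA, so neither need hold osteoclast-like cells alone.

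The summed ratio of the 9 genes in osteoclast-like cells was -0.44. It was 0.11 with doublets kept, 1.28 with the gate, 0.072 with TMM, 1.08 with the myeloid subcluster, -0.039 without the richest cells and -0.88 with the stricter filter, whose subcluster of 9 osteoclast markers had stayed unnamed. No osteoclast-like class of both libraries formed with every deposited cell or with each library clustered on its own. The osteoclast-like share moved from 2.43 to -0.24 with the gate and to 0.24 with the subcluster. In all cells the sum was -0.09, and 0.044 with TMM, 0.026 with DESeq2 and -0.040 with every deposited cell. In macrophage-like cells it was -0.17, and 0.77 with every deposited cell and 0.79 with the subcluster. In mesenchyme it stayed between -0.33 and -0.25 in 13 alternatives.

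The mesenchymal share of Ctsk UMIs moved in Lipo-Clo to 63.6% with doublets kept or at resolution 2, 65.3% with every cell and 50.7% in cells without markers. In Lipo-PBS it moved to 67.3% with doublets, 67.6% with every cell, 72.9% and 68.2% at resolution 0.5 and 2, 64.5% with each library on its own, 51.5% without markers and 82.9% with the mixed cluster. The share of Acp5 moved in Lipo-Clo to 14.8%, 23.7%, 15.1% and 8.73% with doublets, every cell, resolution 2 and no markers, and in Lipo-PBS to 30.6%, 13.7%, 12.3% and 45.1% at resolution 0.5, on its own, without markers and with the mixed cluster. The total of all kept cells stayed the same in the last 2 settings. Leaving out cells with markers could thus only lower these shares, and adding the mixed cluster could only raise them. Genes past 1.5-fold in osteoclast-like cells (954) came to 2778 with the gate, 302 and 8884 at floors of 50 and 1 UMIs, 482 at 2-fold and 2858 with the subcluster. In macrophage-like cells (1409) they came to 2350 with every cell, 3149 with a C1q gate, 438 and 7906 at the floors, 539 at 2-fold and 2424 with the subcluster, and in mesenchyme (2335) to 1509, 8364 and 779 at the floors and 2-fold.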
